A study of Homo sapiens with 20 samples.

Results

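The genes described here encode the subunits of the proteasome and the proteins that assemble, activate or inhibit it. They were taken by symbol: every gene with a probe set that names it alone and whose symbol begins with PSMA, PSMB, PSMC, PSMD, PSME, PSMF or PSMG, without PSMB8, PSMB9, PSMB10 and without 6 antisense or divergent transcripts. That gave 41 of the 19775 genes measured, each read by its brightest probe set. By role they are 7 genes of the alpha ring, 7 of the beta ring, 5 of the ATPase ring, 9 lid and other non-ATPase subunits, 4 assembly chaperones of the core particle (PSMG1 to PSMG4), 3 assembly chaperones of the regulatory particle (PSMD5, PSMD9 and PSMD10) and 4 activators or inhibitors (PSME1, PSME3, PSME4 and PSMF1). The rule also took PSMC3IP, a factor of meiotic recombination, and PSME3IP1, a protein that binds PSME3. Neither of these is a part of the proteasome, and both are counted as other members.

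The proteasome is the protease that degrades ubiquitin-tagged proteins in the cytosol and nucleus. Its barrel-shaped core is made of alpha rings, which gate the entrance, and beta rings, of which PSMB5, PSMB6 and PSMB7 carry the catalytic sites. A regulatory particle with a ring of ATPases unfolds the substrate, and its lid holds the deubiquitinase PSMD14. Dedicated chaperones build both particles, and other caps such as PSME1 with PSME2, PSME3 or PSME4 can take the place of the regulatory particle.

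RNA from 20 cultures of 2 prostate cancer lines was hybridised to Affymetrix oligonucleotide arrays. LNCaP grows in response to androgen, and C42B is a subline of it that tolerates castrate conditions. LSD1 is a histone lysine demethylase encoded by KDM1A, and DHT is the androgen dihydrotestosterone. The 3 comparisons set siLSD1 against siNTC in C42B, siLSD1 against siNTC in LNCaP, and DHT against vehicle in C42B.

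C42B cells received siLSD1 or siNTC (3 arrays each) for 6 h and then stayed for 96 h in RPMI with 10% CSS, which is serum stripped of steroids. LNCaP cells received siLSD1 or siNTC (3 arrays each) at 50 nM and stayed for 96 h in RPMI with 10% FBS. For the androgen experiment, C42B cells were kept in 10% CSS for 72 h before exposure to 100 nM DHT, or to ethanol as vehicle, for 16 h (4 arrays each). According to the labels, the C42B replicates came from separate wells, and each LNCaP replicate pooled a pair of wells. Whether the wells were plated on separate occasions is not said, so p-values measure only how far these samples spread, which may be technical. They name no siRNA sequence and give 1 name per group, so loss of LSD1 and other effects of that siRNA cannot be told apart. The RNA came from whole cultures, so fewer cells expressing a gene and less RNA per cell cannot be told apart either.

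The deposited intensities are on a linear scale, and log2 was taken of each. For C42B the array medians were 78.4 to 81.1 (siLSD1) against 79.5 to 81.2 (siNTC), for LNCaP 63.9 to 65.1 (siLSD1) against 63.3 to 64.4 (siNTC), and for the androgen experiment 84.1 to 85.7 (DHT) against 84.7 to 86.1 (vehicle). The experiments differ in these medians, so levels were compared only within an experiment. The number of arrays limits the precision, and the brightness of one probe set cannot be set against that of another. The 3′ minus 5′ signal of the actin control was 1.17 to 1.31 log2 units in C42B siLSD1 against 1.13 to 1.19 in C42B siNTC, 0.93 to 1.09 in LNCaP siLSD1 against 0.82 to 0.98 in LNCaP siNTC, and 0.91 to 1.16 with DHT against 0.90 to 1.12 with vehicle. Over the 20 arrays 7 markers of luminal prostate epithelium read 7.49 to 14.07 log2 units, and 9 markers of leukocytes, endothelium, stroma and basal epithelium read 3.37 to 8.43; these ranges overlap, at KLK2 and FOLH1 on the luminal side and VWF and ACTA2 on the other. KDM1A read 7.80 to 8.03 in C42B siLSD1 against 10.21 to 10.36 in C42B siNTC and 7.25 to 7.40 in LNCaP siLSD1 against 9.95 to 10.23 in LNCaP siNTC. It fell by 81.1% in C42B and by 85.4% in LNCaP (limma adjusted p = 1.2e-05 and 2.4e-06; exact permutation p = 0.1 in each line, the smallest that 3 against 3 arrays allow).

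Nearly all members were well expressed in every culture. Of the 41 members, 40 read between 7.78 and 13.52 log2 units on all 20 arrays. The exception was PSMA8, a testis form of the alpha ring, at 2.86 to 3.74. Replicates of a group differed little, with an SD of at most 0.22 log2 units for any of the 40 bright members. In 1 or more of the 3 comparisons 28 members passed at an adjusted p under 0.05 (68.3%), beside 48.9% of all genes, and 13 passed in none. PSMC3IP passed in all 3. Bright genes passed more often than genes as a whole, and 37 members had a mean of 10 log2 units or more. Of these members 18.9% passed with siLSD1 in C42B, 45.9% with siLSD1 in LNCaP and 29.7% with DHT. Of all genes that bright, 29.8%, 43.2% and 50.3% passed.

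Promoter sequence was available for 35 of the 41 members in the RefSeq table of GRCh38.p14, from 250 bases before to 50 after each annotated start. These windows were searched on both strands for 6 motifs, none of which contains the letters of another, though matches may overlap. The core of the antioxidant response element, the letters read by NFE2L1 and NFE2L2 with a small MAF partner (TGACNNNGC), was found for 12 of the 35 members, or 34.3%, and for 16.1% of the 27305 genes in the table. The ETS core CCGGAAG was found for 14 members, or 40%, and for 12.2% of all genes. The CCAAT box (CCAAT) was found for 18 members (51.4%) and 39.7% of all genes, the GC box (GGGCGG) for 24 members (68.6%) and 48.3% of all genes, and the TATA box (TATAAA) for 4 members (11.4%) and 14.0% of all genes. The full androgen response palindrome is the half-site AGAACA and its inverted copy with 3 bases between them. It was found for none of the 35 members and for only 1 of all 27305 genes, so its absence here is uninformative. These are matches to letters in a window and not shown to be binding sites. The promoters of 5 members, picked by hand, are shown as examples. PSMC3 was called lower and PSMD3 higher with siLSD1 in both lines. For PSME4 the siLSD1 effect was called different between the lines. PSMD8 had the largest DHT change of the members, and PSMD5 was called lower with siLSD1 in C42B and higher with DHT. Several of these calls were lost in other fits, as given below. Sequences run 5′ to 3′ on the strand of the gene, and capitals mark the antioxidant response element core, the ETS core and the CCAAT box in either orientation. PSMC3 lies at chr11:47426390-47426689 on the minus strand, PSMD3 at chr17:39980557-39980856 on the plus strand, PSME4 at chr2:53970944-53971243 on the minus strand, PSMD8 at chr19:38374321-38374620 on the plus strand and PSMD5 at chr9:120842873-120843172 on the minus strand.
PSMC3: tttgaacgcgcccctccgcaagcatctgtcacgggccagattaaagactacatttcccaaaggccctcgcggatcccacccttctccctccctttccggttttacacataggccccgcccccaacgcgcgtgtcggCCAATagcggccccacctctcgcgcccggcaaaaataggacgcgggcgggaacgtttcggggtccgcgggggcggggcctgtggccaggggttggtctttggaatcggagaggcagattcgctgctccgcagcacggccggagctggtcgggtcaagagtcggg
PSMD3: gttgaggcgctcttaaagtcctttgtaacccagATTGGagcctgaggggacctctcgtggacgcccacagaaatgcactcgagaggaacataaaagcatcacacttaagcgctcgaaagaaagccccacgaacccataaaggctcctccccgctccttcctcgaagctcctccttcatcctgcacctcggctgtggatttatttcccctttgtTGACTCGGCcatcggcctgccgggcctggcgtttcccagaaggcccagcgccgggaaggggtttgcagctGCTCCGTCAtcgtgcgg
PSME4: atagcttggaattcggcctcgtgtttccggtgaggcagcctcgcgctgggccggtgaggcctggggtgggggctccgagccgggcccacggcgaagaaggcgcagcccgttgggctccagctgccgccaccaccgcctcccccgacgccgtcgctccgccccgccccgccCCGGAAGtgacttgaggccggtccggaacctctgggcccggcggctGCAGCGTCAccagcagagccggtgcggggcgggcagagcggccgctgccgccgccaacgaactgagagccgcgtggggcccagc
PSMD8: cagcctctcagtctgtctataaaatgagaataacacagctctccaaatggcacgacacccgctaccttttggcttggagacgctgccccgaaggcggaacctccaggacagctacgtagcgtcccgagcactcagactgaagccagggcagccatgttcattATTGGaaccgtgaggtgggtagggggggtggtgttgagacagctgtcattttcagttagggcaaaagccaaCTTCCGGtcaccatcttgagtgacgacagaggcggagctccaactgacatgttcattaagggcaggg
PSMD5: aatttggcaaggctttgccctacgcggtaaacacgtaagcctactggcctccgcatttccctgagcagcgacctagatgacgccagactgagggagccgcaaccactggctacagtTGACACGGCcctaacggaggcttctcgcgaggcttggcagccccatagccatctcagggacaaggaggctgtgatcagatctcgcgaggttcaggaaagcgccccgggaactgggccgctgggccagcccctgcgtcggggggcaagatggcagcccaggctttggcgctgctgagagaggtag

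Read from the start site, PSMC3 has a CCAAT box at base −114 and neither of the other 2 marked motifs. PSMD3 has the antioxidant response element core at −37 and again at 34 past the start, with a CCAAT box at −217. PSME4 has the core at −34 and an ETS core at −80, PSMD8 an ETS core at −17 and a CCAAT box at −88, and PSMD5 the core at −134.

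In C42B cells, siLSD1 was followed by small falls in 9 proteasome genes and a rise in 1. The falls were spread over the roles: PSMA7 of the alpha ring, PSMB3 and PSMB6 of the beta ring, PSMC3 of the ATPase ring, PSMD4 of the regulatory particle, the chaperones PSMG3 and PSMD5, and the other members PSMC3IP and PSME3IP1. The rise was PSMD3, a lid subunit. Over all 19775 genes 18.0% passed, with 9.39% lower and 8.66% higher. The members' median log2 fold change was −0.10, beside −0.02 over all genes, and 37 of 41 members had a negative value, beside 54.6% of all genes. Groups were completely separated, siLSD1 below siNTC, for 22 members, beside 19.9% of all genes. Of the 37 members with a mean of 10 log2 units or more, 19 were separated that way, beside 1183 of the 3647 genes that bright. Among bright genes, 6 of the 37 members with a mean of 10 log2 units or more fell (16.2%), close to the 14.6% of all genes that bright. Single arrays moved the count: 4 members fell without siLSD1 replicate 2, 3 without siLSD1 replicate 3, 5 without siNTC replicate 2 and 4 without siNTC replicate 3. Over all genes, 1098, 949, 1147 and 1183 fell in those 4 fits, against 1856 with all arrays. Of the 10 calls, those of PSMG3, PSMD3 and PSME3IP1 passed whichever array was left out, and only PSMG3 and PSMD3 passed under every alternative tried.

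**Figure D1:**
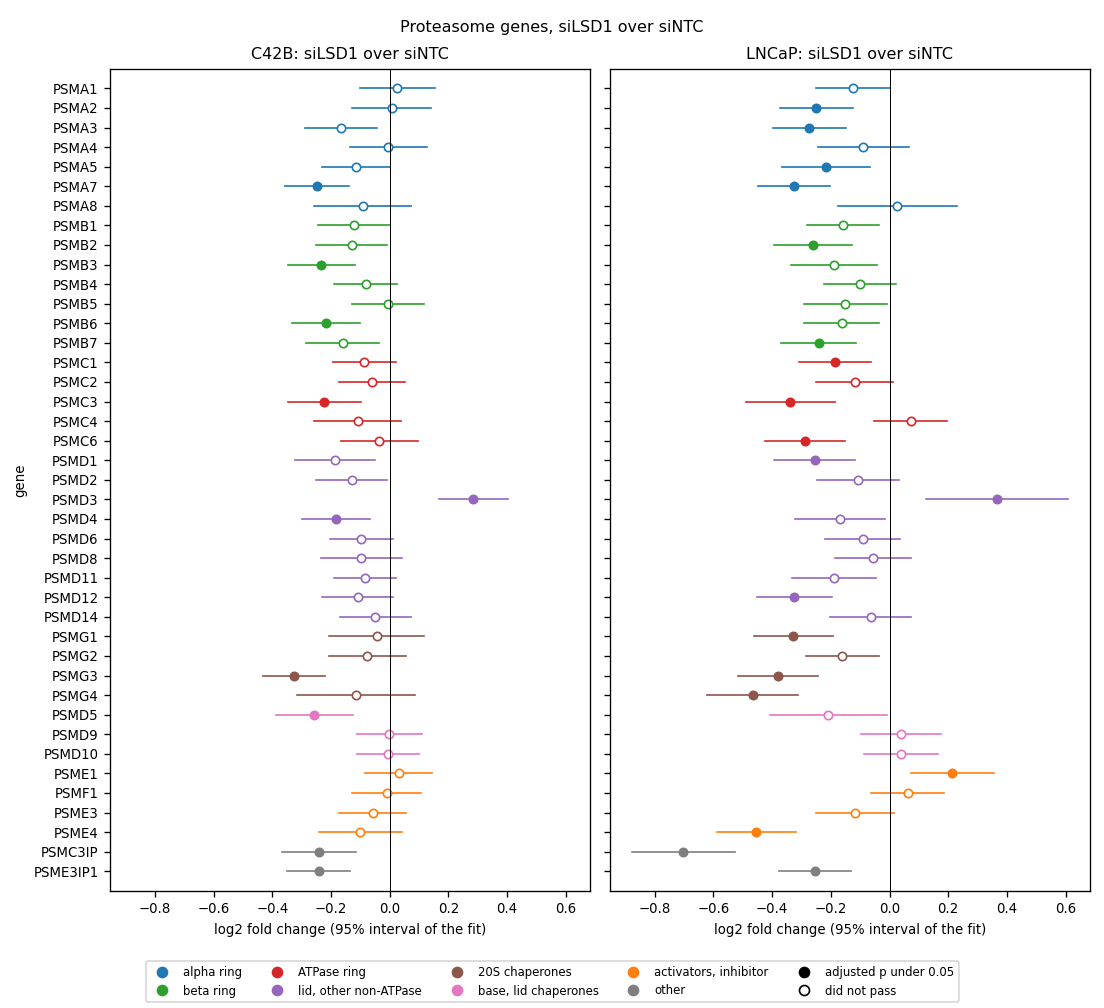
Log2 fold change of each of the 41 members, siLSD1 over siNTC, in C42B (left) and LNCaP (right), with the 95% interval of the limma fit; colours give the role, and filled points passed at an adjusted p under 0.05. Most points lie left of 0 in both panels, with 9 passing there in C42B and 17 in LNCaP, and PSMD3 lies right of 0 in both.

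The largest fall in C42B was in PSMG3, which pairs with PSMG4 to help build the alpha ring (chromosome 7, 1567332 to 1570032, with this and the gene spans that follow on GRCh38.p14 from RefSeq). It read 9.86, 9.88 and 9.86 log2 units with siLSD1, against 10.18, 10.20 and 10.19 with siNTC. The 2 groups were far apart for the spread within each, and PSMG3 fell by 20.2% (log2 fold change −0.33 ± 0.05 SE, adjusted p = 0.0033). PSMD5, a chaperone of the ATPase ring (chromosome 9, 120816053 to 120842922), read 9.29, 9.35 and 9.40 with siLSD1, against 9.66, 9.63 and 9.54 with siNTC. All siLSD1 arrays lay below all siNTC arrays, and PSMD5 fell by 16.3% (−0.26 ± 0.06, adjusted p = 0.020). That call was lost without siLSD1 replicate 2 or siNTC replicate 1 or 2 (adjusted p = 0.066 to 0.068), with a replicate block (0.056) and with the mean of its probe sets (0.094). The remaining chaperones did not pass. PSMG1, partner of PSMG2 in alpha ring assembly, read 10.67, 10.88 and 10.87 with siLSD1, against 10.89, 10.86 and 10.80 with siNTC. PSMG2 read 12.46, 12.55 and 12.47 with siLSD1, against 12.58, 12.63 and 12.50 with siNTC. PSMG4 read 10.98, 11.24 and 11.26 with siLSD1, against 11.19, 11.36 and 11.27 with siNTC. The groups overlapped for these 3 genes, and for PSMG1 and PSMG4 siLSD1 replicate 1 was the lowest of the 6 arrays.

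In the core particle, PSMA7 (chromosome 20, 62136733 to 62143394) read 12.75, 12.70 and 12.70 in C42B with siLSD1, against 12.94, 12.98 and 12.97 with siNTC. The groups did not overlap, and PSMA7 fell by 15.8% (−0.25 ± 0.05, adjusted p = 0.011). Its probe set is of a class that may also bind related transcripts, as are those used for PSMA1, PSMC3IP, PSMD4 and PSME3. The PSMA7 call was lost without siLSD1 replicate 3 (adjusted p = 0.053) and with the mean of its probe sets (0.078). The other 6 alpha ring genes did not pass, with log2 fold changes of −0.17 (PSMA3) to 0.03 (PSMA1). PSMB3 (chromosome 17, 38752741 to 38764225) read 12.53, 12.55 and 12.51 with siLSD1, against 12.74, 12.75 and 12.82 with siNTC, and fell with all siLSD1 arrays below all siNTC arrays (−0.23 ± 0.05, adjusted p = 0.016), a call lost without siLSD1 replicate 3 or siNTC replicate 3 (0.053 to 0.069). Of the catalytic subunits, PSMB6, the caspase-like one, read 11.81, 11.80 and 11.81 with siLSD1, against 11.98, 12.02 and 12.08 with siNTC. Its siLSD1 arrays were nearly identical and lay below all siNTC arrays, and PSMB6 fell by 14.1% (−0.22 ± 0.05, adjusted p = 0.022). The PSMB6 call was lost without siLSD1 replicate 2 or 3 or siNTC replicate 2 or 3 (adjusted p = 0.064 to 0.079) and with a replicate block (0.054). PSMB7, the trypsin-like subunit, read 12.22, 12.28 and 12.32 with siLSD1, against 12.38, 12.46 and 12.46 with siNTC (−0.16 ± 0.05, adjusted p = 0.080). PSMB5, the chymotrypsin-like subunit and a main target of proteasome inhibitor drugs, read 11.52, 11.64 and 11.57 with siLSD1, against 11.59, 11.61 and 11.54 with siNTC (−0.01, 95% interval −0.13 to 0.12). The groups were separate for PSMB7 but did not pass, and they overlapped for PSMB5.

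In the regulatory particle, PSMC3 (chromosome 11, 47418775 to 47426439), an ATPase whose promoter is printed above, read 10.55, 10.55 and 10.58 in C42B with siLSD1, against 10.73, 10.86 and 10.77 with siNTC. The groups did not overlap, and PSMC3 fell by 14.3% (−0.22 ± 0.05, adjusted p = 0.027). The PSMC3 call was lost without siLSD1 replicate 2 or 3 or siNTC replicate 2 or 3 (adjusted p = 0.065 to 0.092) and with a replicate block (0.059). The other 4 ATPases did not pass (−0.11 for PSMC4 to −0.04 for PSMC6). PSMD4, a ubiquitin receptor, fell by 12.0% (−0.18 ± 0.05, adjusted p = 0.041), and its call was lost on leaving out any of 5 single arrays. PSMD3 (chromosome 17, 39980807 to 39997959) went the other way and read 10.39, 10.38 and 10.42 with siLSD1, against 10.06, 10.16 and 10.12 with siNTC. All its siLSD1 arrays lay above all siNTC arrays, and PSMD3 was 21.8% higher (0.28 ± 0.05, adjusted p = 0.0083). The deubiquitinase PSMD14 read 11.57, 11.60 and 11.61 with siLSD1, against 11.57, 11.67 and 11.68 with siNTC, and the groups overlapped.

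None of the 4 activators and inhibitors passed in C42B with siLSD1. PSME1, a subunit of an interferon-inducible cap, read 11.47, 11.49 and 11.49 with siLSD1, against 11.42, 11.42 and 11.50 with siNTC. PSME3, the nuclear cap, read 10.22, 10.18 and 10.26 with siLSD1, against 10.27, 10.31 and 10.26 with siNTC. PSME4, the large nuclear activator, read 10.31, 10.14 and 10.22 with siLSD1, against 10.28, 10.31 and 10.38 with siNTC. In each of these the groups overlapped or met, as they did for the inhibitor PSMF1, which read 10.06, 10.04 and 10.12 with siLSD1, against 10.05, 10.08 and 10.13 with siNTC. Of the other members, PSME3IP1 read 10.33, 10.35 and 10.34 with siLSD1, against 10.56, 10.58 and 10.61 with siNTC, and fell by 15.5% (−0.24 ± 0.05, adjusted p = 0.011). PSMC3IP read 8.82, 8.80 and 8.87 with siLSD1, against 9.14, 9.01 and 9.07 with siNTC, and fell by 15.4% (−0.24 ± 0.05, adjusted p = 0.020). The groups were separate for both, but the PSMC3IP call was lost without siLSD1 replicate 2 or 3 or siNTC replicate 1 or 3 (adjusted p = 0.056 to 0.079). Without these 2 genes, 7 of the remaining 39 members fell.

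In LNCaP cells, siLSD1 was followed by falls in 17 of the 41 proteasome genes and rises in 2, PSMD3 and PSME1. Over all genes 25.9% passed, with 12.5% lower and 13.4% higher, so the members fell in a larger share (41.5%) and rose in a smaller one. The falls were in 4 of 7 alpha ring genes (PSMA2, PSMA3, PSMA5 and PSMA7), 2 of 7 beta ring genes (PSMB2 and PSMB7), 3 of 5 ATPases (PSMC1, PSMC3 and PSMC6), 2 of 9 lid and other non-ATPase subunits (PSMD1 and PSMD12), 3 of 4 core particle chaperones (PSMG1, PSMG3 and PSMG4), PSME4 and both other members. The median log2 fold change was −0.17 for the members and 0.01 for all genes, and 34 members had a negative value. Groups were completely separated, siLSD1 below siNTC, for 29 members, beside 19.5% of all genes, and 4 were separated the other way, beside 20.6%. Of the 37 members with a mean of 10 log2 units or more, 27 were separated downwards, beside 1342 of the 3647 genes that bright. Upwards it was 4 of those members, beside 1060 of those genes. Among bright genes the share was also larger: 15 of 37 members with a mean of 10 log2 units or more fell (40.5%), beside 23.9% of all genes that bright. Leaving out single arrays gave 12 to 16 falls among members and 1843 to 2689 over all genes. Of the 19 calls, 12 passed whichever array was left out, and 6 passed under every alternative tried: PSMA7, PSMC3, PSMC3IP, PSMC6, PSMG1 and PSMG3.

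The core particle chaperones had the lowest median of the 7 proteasome roles, −0.35. PSMG4 (chromosome 6, 3254404 to 3268049) read 10.44, 10.44 and 10.43 in LNCaP with siLSD1, against 10.79, 10.92 and 10.998 with siNTC. Its siLSD1 arrays were nearly identical and well below the siNTC arrays, and PSMG4 fell by 27.6% (−0.47 ± 0.07, adjusted p = 0.0013), although the mean of its probe sets did not pass (−0.16, adjusted p = 0.094). PSMG3 read 9.42, 9.54 and 9.44 with siLSD1, against 9.88, 9.81 and 9.86 with siNTC, and fell by 23.2% (−0.38 ± 0.06, adjusted p = 0.0020). PSMG1 read 10.54, 10.46 and 10.54 with siLSD1, against 10.79, 10.89 and 10.84 with siNTC, and fell by 20.3% (−0.33 ± 0.06, adjusted p = 0.0040). No array of one group reached the other in either gene. PSMG2 read 11.57, 11.61 and 11.61 with siLSD1, against 11.78, 11.77 and 11.71 with siNTC; the groups were separate, but the gene did not pass (−0.16 ± 0.05, adjusted p = 0.065). Of the chaperones of the regulatory particle none passed, with log2 fold changes of −0.21 for PSMD5 and 0.04 for both PSMD9 and PSMD10.

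PSMA7 led the alpha ring in LNCaP as in C42B. It read 12.24, 12.22 and 12.21 with siLSD1, against 12.57, 12.53 and 12.55 with siNTC. The arrays of each group lay close together and far from the other group, and PSMA7 fell by 20.2% (−0.33 ± 0.05, adjusted p = 0.0024). PSMA3 fell by 17.2%, PSMA2 fell by 15.9% and PSMA5 fell by 13.9%. The PSMA5 call was lost on leaving out any array but siNTC replicate 2 (adjusted p = 0.058 to 0.16) and under quantile normalisation (0.055), and none of the 3 passed with the mean of its probe sets. In the beta ring PSMB7 read 11.81, 11.78 and 11.75 with siLSD1, against 12.00, 11.99 and 12.06 with siNTC, and fell by 15.4% (−0.24 ± 0.06, adjusted p = 0.013), a call lost without siLSD1 replicate 2 or 3 (0.052 to 0.057). PSMB6 read 11.32, 11.34 and 11.26 with siLSD1, against 11.45, 11.46 and 11.50 with siNTC (−0.16 ± 0.06, adjusted p = 0.065). PSMB5 read 11.76, 11.66 and 11.69 with siLSD1, against 11.83, 11.80 and 11.93 with siNTC (−0.15 ± 0.06, adjusted p = 0.12). All 7 beta ring genes had siLSD1 arrays wholly below siNTC arrays, although only PSMB2 and PSMB7 passed. The same separation held for 19.5% of all genes and for 1342 of the 3647 genes with a mean of 10 log2 units or more.

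In the regulatory particle PSMC3 read 10.75, 10.71 and 10.67 in LNCaP with siLSD1, against 10.95, 11.05 and 11.13 with siNTC. The groups were separate, and PSMC3 fell by 20.9% (−0.34 ± 0.07, adjusted p = 0.0062). PSMC6 fell by 18.0% and PSMC1 fell by 12.1%, while PSMC4 had a log2 fold change of 0.07 and did not pass. The PSMC1 call was lost on leaving out any array but siNTC replicate 1 (adjusted p = 0.061 to 0.12) and with a replicate block (0.072). PSMD12, a lid subunit, fell by 20.1% and PSMD1, a scaffold of the base, fell by 16.2%. The PSMD12 call was lost with the mean of its probe sets (adjusted p = 0.43), and that of PSMD1 without siLSD1 replicate 2 or 3 (0.051 to 0.056). PSMD14 read 11.34, 11.38 and 11.42 with siLSD1, against 11.51, 11.39 and 11.43 with siNTC, and the groups overlapped. PSMD3 read 9.72, 9.82 and 9.70 with siLSD1, against 9.25, 9.26 and 9.63 with siNTC. The siLSD1 arrays were all above the siNTC arrays, but siNTC replicate 3 stood far above the other two, and PSMD3 was 28.9% higher (0.37 ± 0.11, adjusted p = 0.034). That call was lost on leaving out siNTC replicate 1 or 2 or any siLSD1 array (adjusted p = 0.077 to 0.11) and under centring on array medians (0.33, adjusted p = 0.052).

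Among the activators, PSME4 (chromosome 2, 53864069 to 53970993) read 9.63, 9.68 and 9.70 in LNCaP with siLSD1, against 10.12, 10.07 and 10.18 with siNTC. The groups lay far apart, and PSME4 fell by 27.0% (−0.45 ± 0.06, adjusted p = 0.00074); with the mean of its 3 probe sets the fall did not pass (−0.25, adjusted p = 0.10). PSME1 read 11.77, 11.72 and 11.69 with siLSD1, against 11.59, 11.44 and 11.50 with siNTC, and was 16.0% higher (0.21 ± 0.06, adjusted p = 0.035). Its call was lost on leaving out siNTC replicate 2 or 3 or any siLSD1 array (adjusted p = 0.071 to 0.11) and under centring on array medians (0.18, adjusted p = 0.051). PSME3 read 10.77, 10.77 and 10.66 with siLSD1, against 10.85, 10.83 and 10.87 with siNTC. PSMF1 read 10.65, 10.60 and 10.67 with siLSD1, against 10.57, 10.56 and 10.60 with siNTC. Neither passed, although PSME3 was separated downwards and PSMF1 upwards. PSMC3IP (chromosome 17, 42572310 to 42577831) fell the most of all members: it read 7.88, 7.78 and 7.81 with siLSD1, against 8.59, 8.61 and 8.38 with siNTC, and fell by 38.6% (−0.70 ± 0.08, adjusted p = 0.00031). PSME3IP1 fell by 16.1% (adjusted p = 0.0090).

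The responses of the 2 lines pointed the same way for most members. The lines share no arrays, and 34 of 41 members (82.9%) had the same sign in both, beside 62.6% of all genes. PSMA7, PSMC3, PSMC3IP, PSME3IP1 and PSMG3 fell in both lines, and PSMD3 rose in both. These 5 are 55.6% of the 9 falls in C42B and 29.4% of the 17 in LNCaP, no larger than the shares over all genes, where the 1116 genes lower in both are 60.1% of the C42B falls and 45% of those in LNCaP. Across members the log2 fold changes of the lines correlated with Pearson's r = 0.66, and across all genes with r = 0.58; genes are not independent replicates, so these are descriptions. Set against the mean of the siNTC arrays, 38, 34 and 31 members were lower on the 3 C42B siLSD1 arrays, and 34, 35 and 34 on the 3 LNCaP siLSD1 arrays. Of all genes 49.4%, 55.5% and 56.5% were lower on the same C42B arrays, and 44.5%, 48.2% and 50.1% on the same LNCaP arrays.

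**Figure D2:**
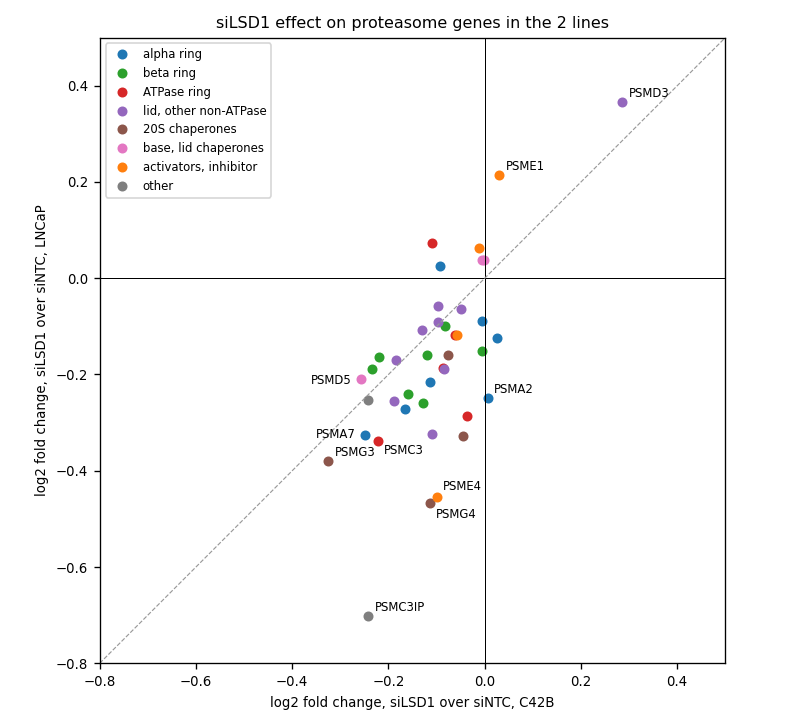
Log2 fold change of each member, siLSD1 over siNTC, in C42B (horizontal) against LNCaP (vertical); colours give the role and the dashed line marks equal values. Most members lie in the lower left, 34 of 41 have the same sign in both lines, and PSMC3IP, PSMG4 and PSME4 lie well below the dashed line.

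The difference between the 2 siLSD1 effects was tested as its own contrast over the 12 siRNA arrays. It passed for 3 members, all with a less negative value in C42B than in LNCaP, and for none in the other direction; over all genes 5.56% passed in the first direction and 6.07% in the second (11.6% in all), and among genes with a mean of 10 log2 units or more 11.1% and 6.44%. With limma, 9 members (22%) had an unadjusted p under 0.05, beside 25.4% of all genes. For PSMC3IP the effect in C42B minus that in LNCaP was 0.46 ± 0.09 (adjusted p = 0.0076), and for PSME4 it was 0.35 ± 0.08 (adjusted p = 0.015). With the mean of the 3 PSME4 probe sets the difference did not pass (0.40, adjusted p = 0.056). PSMA2 differed by 0.26 ± 0.07 (adjusted p = 0.045): in C42B it read 13.00, 13.09 and 13.10 with siLSD1, against 13.10, 13.10 and 12.98 with siNTC, and in LNCaP 12.48, 12.48 and 12.50 with siLSD1, against 12.69, 12.75 and 12.77 with siNTC. The PSMA2 groups overlapped in C42B and were separate in LNCaP. Its difference no longer passed when any one of 10 of the 12 arrays was left out (adjusted p = 0.057 to 0.11). The number of members passing rose to 6 without C42B siLSD1 replicate 1 or without LNCaP siNTC replicate 1, with PSMC6, PSMG1 and PSMG4 added in both fits. Over all genes, leaving out 1 array at a time gave 738 to 1483 in the first direction, against 1100 with all arrays. Line, medium and transfection differ together between these experiments and cannot be told apart.

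In C42B cells given DHT, proteasome genes moved in both directions. Of the 41 members 10 rose and 3 fell, while over all genes 32.7% passed, with 13.4% higher and 19.4% lower. The rises were in PSMA3 and PSMA5 of the alpha ring, the ATPase PSMC2, the lid subunits PSMD8 and PSMD11, the chaperones PSMG1 and PSMD5, the activators PSME3 and PSME4, and PSMC3IP. The falls were in PSMG4, PSMF1 and PSME1, and none of the 7 beta ring genes passed. Groups did not overlap for 11 members with DHT above vehicle, beside 14.0% of all genes, and for 4 with DHT below vehicle, beside 20.6%. Of the 37 members with a mean of 10 log2 units or more, 9 were separated upwards, beside 967 of the 3647 genes that bright. Downwards it was 4 of those members, beside 1250 of those genes. The median log2 fold change was 0.06 for the members and 0.01 for all genes. Among members with a mean of 10 log2 units or more, 8 of 37 rose (21.6%), beside 23.3% of all genes that bright, and 3 fell (8.11%), beside 27.1%. The split moved with the scaling between arrays: centring on array medians gave 21 rises and 2 falls among members, with 4530 rises and 2778 falls over all genes instead of 2643 and 3827, and quantile normalisation gave 9 rises and 6 falls among members. Of the 13 calls, 9 passed whichever array was left out, and 5 passed under every alternative tried: PSMD8, PSMD5, PSME3, PSME4 and PSMC3IP.

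**Figure D3:**
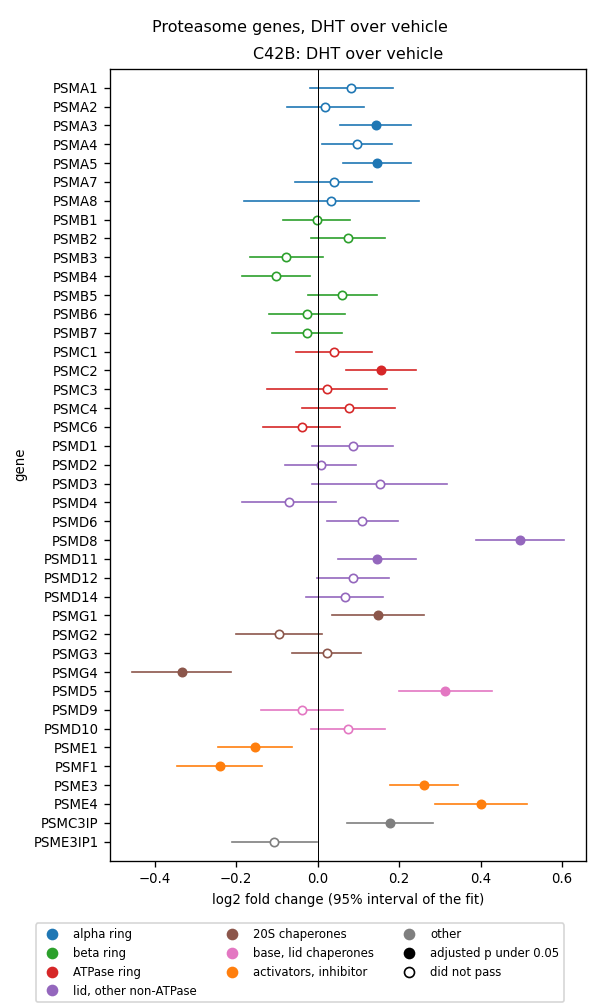
Log2 fold change of each member in C42B cells, DHT over vehicle, with the 95% interval of the limma fit; colours give the role, and filled points passed at an adjusted p under 0.05. PSMD8 lies farthest to the right at 0.50 and PSMG4 farthest to the left at −0.33, with most beta ring genes close to 0.

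PSMD8 (chromosome 19, 38374571 to 38383824), a lid subunit, changed the most. It read 12.05, 12.11, 12.07 and 12.18 log2 units with DHT, against 11.59, 11.68, 11.62 and 11.53 with vehicle. The gap between the groups was larger than the range of either, and PSMD8 was 41.0% higher (0.50 ± 0.05, adjusted p = 3.8e-05). With siLSD1 the same probe set did not pass in either line (−0.10 in C42B and −0.06 in LNCaP). The ATPase PSMC2 read 12.97, 12.95, 12.99 and 12.91 with DHT, against 12.82, 12.81, 12.81 and 12.76 with vehicle, and was 11.3% higher (0.15 ± 0.04, adjusted p = 0.012). Another PSMC2 probe set passed in the opposite direction, and the mean of its probe sets did not pass (−0.069, adjusted p = 0.28). PSMD14 read 12.09, 12.16, 12.04 and 12.04 with DHT, against 11.99, 12.05, 12.03 and 11.99 with vehicle, and did not pass. PSMD11 was 10.6% higher and passed at 0.027, a call lost without DHT replicate 2 or 3 or vehicle replicate 2, 3 or 4.

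Among the chaperones 2 rose and 1 fell with DHT. PSMD5 read 10.35, 10.47, 10.28 and 10.30 with DHT, against 9.98, 10.02, 10.07 and 10.08 with vehicle. The groups were separate, and PSMD5 was 24.2% higher (0.31 ± 0.05, adjusted p = 0.0011). PSMG4 read 10.94, 10.94, 10.79 and 11.04 with DHT, against 11.24, 11.28, 11.24 and 11.27 with vehicle. All 4 DHT arrays were below all vehicle arrays, and PSMG4 fell by 20.7% (−0.33 ± 0.05, adjusted p = 0.0011), although the mean of its probe sets did not pass (−0.07, adjusted p = 0.23). PSMG1 read 10.76, 10.82, 10.63 and 10.77 with DHT, against 10.60, 10.54, 10.66 and 10.59 with vehicle; the groups overlapped, and the rise of 0.15 (adjusted p = 0.047) was lost on leaving out any single array except DHT replicate 3. PSMG2 read 12.35, 12.49, 12.32 and 12.45 with DHT, against 12.48, 12.49, 12.51 and 12.51 with vehicle. PSMG3, lower with siLSD1 in both lines, read 10.12, 10.18, 10.12 and 10.08 with DHT, against 10.11, 10.10, 10.09 and 10.11 with vehicle (0.02, 95% interval −0.06 to 0.11). Neither PSMG2 nor PSMG3 passed.

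The activators and the inhibitor all passed with DHT, in both directions. PSME4 read 10.80, 10.64, 10.65 and 10.65 with DHT, against 10.23, 10.31, 10.27 and 10.33 with vehicle. DHT replicate 1 stood above the other 3, which still lay above every vehicle array, and PSME4 was 32.0% higher (0.40 ± 0.05, adjusted p = 0.00020). PSME3 read 10.75, 10.78, 10.72 and 10.76 with DHT, against 10.46, 10.47, 10.52 and 10.52 with vehicle, and was 19.8% higher (0.26 ± 0.04, adjusted p = 0.00048). PSMF1 read 10.19, 10.26, 10.15 and 10.15 with DHT, against 10.46, 10.38, 10.49 and 10.38 with vehicle, and fell by 15.4% (−0.24 ± 0.05, adjusted p = 0.0030); the mean of its probe sets did not pass (adjusted p = 0.86). PSME1 read 11.54, 11.63, 11.58 and 11.56 with DHT, against 11.73, 11.74, 11.78 and 11.69 with vehicle, and fell by 10.1% (−0.15 ± 0.04, adjusted p = 0.016). In all 4 genes the groups were separate. The fall of PSME1 no longer passed under centring on array medians (−0.09, adjusted p = 0.11) or without vehicle replicate 3 (adjusted p = 0.055).

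The catalytic subunits were close to level with DHT. PSMB5 read 12.00, 12.03, 11.97 and 12.05 with DHT, against 11.96, 11.95, 11.97 and 11.93 with vehicle (0.06, 95% interval −0.02 to 0.14). PSMB6 read 12.02, 11.98, 12.03 and 11.93 with DHT, against 12.04, 12.00, 12.06 and 11.97 with vehicle (−0.03, interval −0.12 to 0.07). PSMB7 read 12.40, 12.39, 12.38 and 12.39 with DHT, against 12.41, 12.48, 12.41 and 12.37 with vehicle (−0.03, interval −0.11 to 0.06). Their groups overlapped or met. In the alpha ring PSMA3 was 10.3% higher (0.14 ± 0.04, adjusted p = 0.018) and PSMA5 10.6% higher (0.15 ± 0.04, adjusted p = 0.013); neither passed with the mean of its probe sets. PSMC3IP read 9.34, 9.41, 9.27 and 9.41 with DHT, against 9.17, 9.21, 9.22 and 9.12 with vehicle, and was 13.0% higher (0.18 ± 0.05, adjusted p = 0.017).

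Set beside the siLSD1 results, which use other arrays, 5 members fell with siLSD1 in LNCaP and rose with DHT in C42B: PSMA3, PSMA5, PSMC3IP, PSME4 and PSMG1. They are 29.4% of the 17 LNCaP falls and 50% of the 10 DHT rises, beside 15.8% and 14.8% over all genes (391 genes). Of these 5, only PSMC3IP, which is not a part of the proteasome, passed in both comparisons under every alternative tried. In C42B itself 2 members fell with siLSD1 and rose with DHT, PSMD5 and PSMC3IP, which is 22.2% of the 9 falls and 20% of the 10 rises, beside 14% and 9.84% over all genes (260 genes). The siLSD1 calls of both were lost on leaving out some single arrays, as given above. PSMG4 fell with siLSD1 in LNCaP and with DHT in C42B. It is 5.88% of the 17 LNCaP falls and 33.3% of the 3 DHT falls, beside 27.9% and 18.1% over all genes (692 genes). Neither PSMG4 call passed with the mean of its probe sets. Across all 41 members the DHT and siLSD1 fold changes correlated weakly, with r = 0.01 for C42B siLSD1 and −0.09 for LNCaP siLSD1, given as descriptions.

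**Figure D4:**
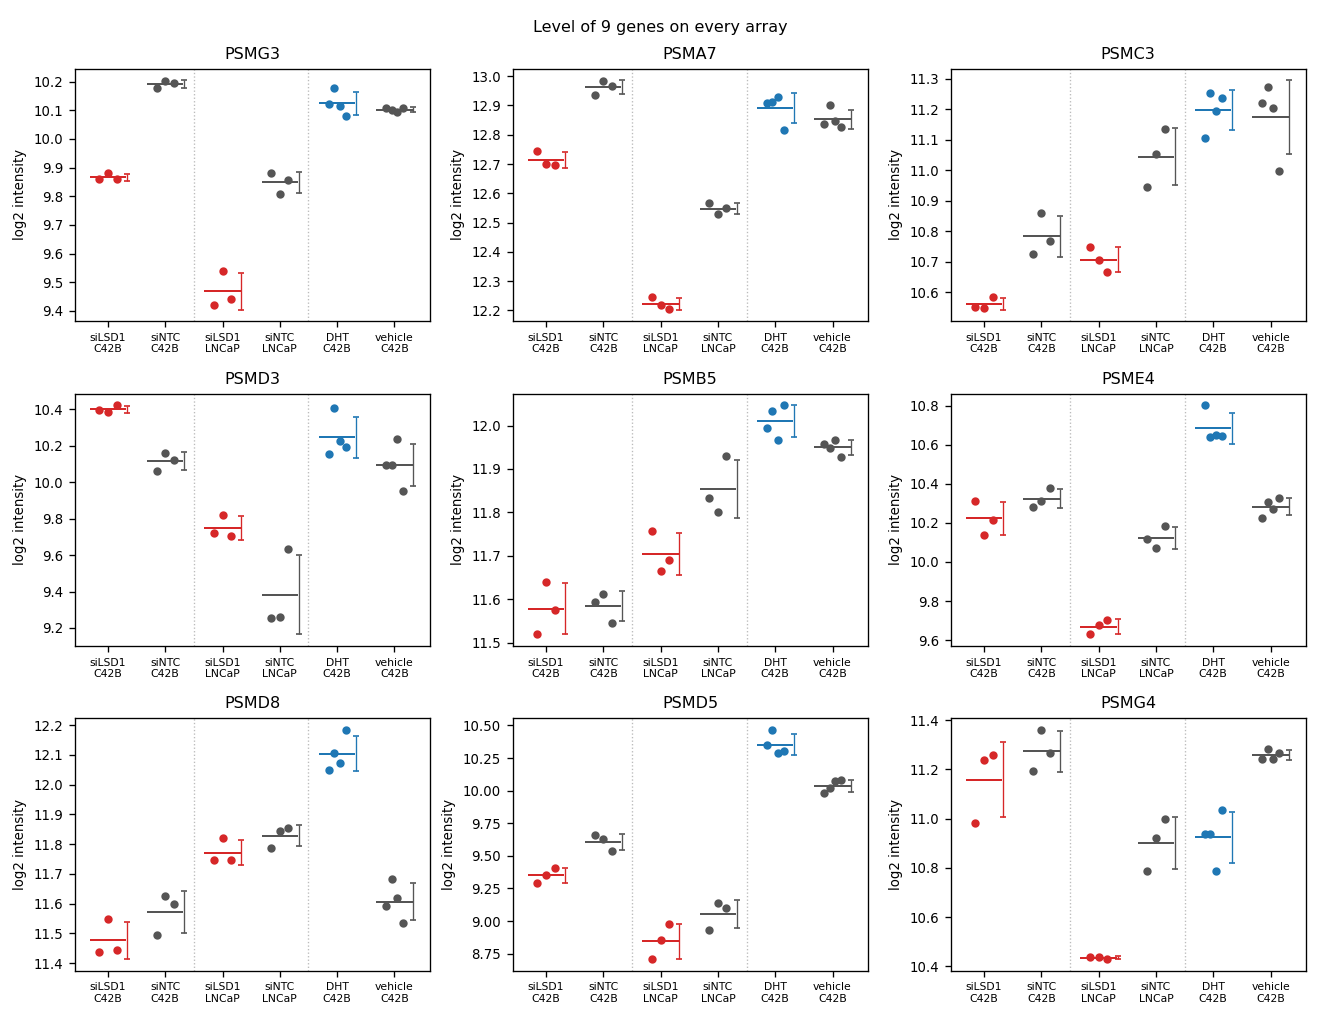
Log2 intensity of 9 members on every array, by group; points are arrays, horizontal lines the group means and bars the SD, and dotted lines divide the 3 experiments, between which levels are not compared. PSMG3, PSMA7 and PSMC3 are lower and PSMD3 higher with siLSD1 than with siNTC in both lines. PSMB5 differs little in C42B and lies lower with siLSD1 in LNCaP (−0.15), where it did not pass. PSMD8, PSMD5 and PSME4 are higher and PSMG4 lower with DHT than with vehicle.

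For 24 of the 41 members the arrays carry more than 1 probe set, 84 in all, and these did not always agree. The printed changes of PSMC2 rest on its brightest probe set, whose siLSD1 values were −0.06 in C42B and −0.12 in LNCaP. A dimmer PSMC2 probe set was higher by 0.37 in C42B and 0.42 in LNCaP with siLSD1 and passed in both. A further one fell by 0.32 with DHT, where PSMC2 probe sets passed in both directions. PSMA5 was alike: its second probe set was higher with siLSD1 by 0.54 in C42B and 0.42 in LNCaP, where the brightest read −0.11 and −0.22, and read −0.15 with DHT. For PSME4 one dimmer probe set read 0.33 in C42B and 0.48 in LNCaP with siLSD1, while another read −0.78 in LNCaP; with DHT all 3 PSME4 probe sets were positive (0.37 to 0.60). For PSMG4 the bright probe sets other than the brightest did not pass with DHT (0.07 for one and close to 0 for the other), where the brightest read −0.33. The second probe set of PSMC3IP did not pass in C42B (−0.17) and fell by 1.37 in LNCaP. A bright probe set of the opposite sign existed for 2 of the 10 members called with siLSD1 in C42B (PSMD4 and PSME3IP1), for 8 of the 19 in LNCaP (PSMA2, PSMA3, PSMA5, PSMB2, PSMD12, PSME3IP1, PSME4 and PSMG4) and for 5 of the 13 with DHT (PSMA3, PSMA5, PSMC2, PSMF1 and PSMG4). The calls for PSMG3, PSMD3, PSMC3, PSMB3, PSMB6, PSMD8 and PSME1 rest on 1 probe set each.

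Proteins that work with the proteasome but carry other symbols were counted from lists written for this purpose. Of 14 partners, 2 fell with siLSD1 in C42B (14.3%, beside 9.39% of all genes), and 4 fell (28.6%, beside 12.5%) and 2 rose (14.3%, beside 13.4%) with siLSD1 in LNCaP. Most of the listed genes are bright, and of all genes with a mean of 10 log2 units or more 14.6% fell in C42B. In LNCaP 23.9% of genes that bright fell and 19.4% rose. AKIRIN2, which brings proteasomes into the nucleus, had mean levels of 8.27 with siLSD1 and 8.85 with siNTC in C42B (−0.58 ± 0.06, adjusted p = 0.0010) and of 7.99 with siLSD1 and 8.80 with siNTC in LNCaP (−0.81 ± 0.07, adjusted p = 0.00011). UCHL5, a deubiquitinase of the regulatory particle, fell by 0.42 log2 units in C42B and by 0.74 in LNCaP, and rose by 0.21 with DHT. In LNCaP the ATPase chaperone PAAF1 fell by 0.42 and ZFAND2A rose by 0.30. With DHT 4 of the 14 rose, PITHD1 (0.35), ZFAND2A (0.25), UCHL5 and UBE3C (0.16), and none fell. Those 4 are 28.6%, beside 13.4% of all genes higher with DHT, and 32.7% of all genes passed in either direction. Of all genes with a mean of 10 log2 units or more, 23.3% were higher with DHT. The maturation factor POMP did not pass with siLSD1 (0.04 in C42B and 0.02 in LNCaP).

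Of 10 genes of the p97 unfoldase and its cofactors, 3 fell with siLSD1 in each line (30%, beside 9.39% of all genes in C42B and 12.5% in LNCaP). Of all genes with a mean of 10 log2 units or more, 14.6% fell in C42B and 23.9% in LNCaP. YOD1, a deubiquitinase that binds p97, fell by 0.45 in C42B and by 1.29 in LNCaP, FAF1 fell by 0.43 in C42B and by 0.31 in LNCaP, UBXN7 fell by 0.25 in C42B, and UFD1 fell by 0.19 in LNCaP. With DHT 4 of the 10 rose, beside 13.4% of all genes and 23.3% of those with a mean of 10 log2 units or more. Among them were YOD1 (0.52), UBXN4 (0.35) and VCP (0.35), which encodes p97 itself, while UBXN7 fell by 0.25. Of the 7 genes of ubiquitin, its activation and its shuttle receptors, 1 passed with siLSD1 in C42B, 2 in LNCaP and 3 with DHT, beside 18.0%, 25.9% and 32.7% of all genes. UBQLN1 rose with siLSD1 by 0.19 in C42B and by 0.27 in LNCaP, and UBQLN4 fell by 0.23 in LNCaP. With DHT UBA6 rose by 0.24 and UBQLN4 by 0.15, while UBQLN2 fell by 0.48.

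Of 7 genes known to regulate proteasome genes, 2 passed with siLSD1 in C42B (28.6%), 5 in LNCaP (71.4%) and 4 with DHT (57.1%). Over all genes 18.0%, 25.9% and 32.7% passed. Of all genes with a mean of 10 log2 units or more, 29.8%, 43.2% and 50.3% passed. NFE2L1, the factor that raises them when proteasome activity is short, did not pass with siLSD1 in C42B (0.01), and fell by 0.26 with siLSD1 in LNCaP and by 0.17 with DHT. MAFF, a small MAF partner of such factors, rose by 0.36 with siLSD1 in LNCaP. FOXM1, a transcription factor of dividing cells, fell with siLSD1 by 0.44 in C42B and by 1.17 in LNCaP, and STAT3 rose with siLSD1 by 0.50 in C42B and by 0.33 in LNCaP. With DHT, NGLY1 (0.34), which NFE2L1 needs to become active, MAFG (0.33) and STAT3 (0.20) rose. The part of any of these in the members' changes was not tested. The 3 immunoproteasome subunits, which replace catalytic subunits after interferon, did not pass in C42B with siLSD1 or DHT. In LNCaP PSMB9 read 6.06, 6.20 and 5.97 with siLSD1, against 6.48, 6.35 and 6.35 with siNTC, and fell by 0.32 (adjusted p = 0.017).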

How the data were processed

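RNA from 20 cultures was measured on 54675 probe sets. The authors deposited linear intensity values; the submitters' processing notes name RMA and affy, whose versions were not given. RMA models the probes of all arrays run together, and array medians differ between the experiments, so each experiment was fitted alone except for the difference between lines. The labels name 2 labelling kits without assigning them to samples.

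Log2 was taken of each intensity. Of the probe sets, 41091 named 1 gene in the annotation used here, 1801 several and 11721 none, and 62 were controls; the brightest 1-gene probe set stood for each of 19775 genes. Each comparison had its own limma fit (version 3.58.1, R 4.3.3; lmFit, then eBayes), two-sided, and p-values were adjusted over all genes by Benjamini-Hochberg with a threshold of 0.05. A contrast over the 12 siRNA arrays tested the difference between lines. KDM1A also had an exact permutation test. The fit was tested on simulated data. Summaries were made in Python (3.11.15) with pandas (2.3.3) and numpy (2.4.6), and plots with matplotlib (3.10.9).

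Values on every array are given, by rule, for up to 8 members per comparison with the largest change among those that passed with separate groups, and for the catalytic subunits, PSMD14, the activators, PSMF1 and PSMG1 to PSMG4; PSMB6 in C42B, PSMA2 and PSME1 are shown beside them. Other lists name up to 4 passing genes per comparison; POMP, and NFE2L1 where it did not pass, were picked once their values had been seen. The members and lists were chosen with earlier results of these data known. The motifs, the brightness comparison at 10 log2 units and the count without PSMC3IP and PSME3IP1 were chosen after seeing the data. PSMC5, PSMD7, PSMD13 and some other genes were not analysed here. Alternatives were the mean of all probe sets, bright genes only (a group mean of at least 6), median centring, quantile normalisation, eBayes with trend and robust, a replicate block, and leaving out each array. Replicate numbers did not pair the arrays: same-numbered arrays correlated at −0.096 to 0.20 around their group means.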

Additional observations from a re-analysis of the deposited data

Results flagged for a closer look

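In 7 of 82 groups of 4 arrays tested, 1 array stood apart from the others, where chance gives about 1 in 20. With DHT the lowest array read 12.86 for PSMA3, 12.82 for PSMA7, 12.39 for PSMB2 and 13.35 for PSMB4, and the highest read 10.80 for PSME4. With vehicle the highest array read 12.37 for PSMA5 and the lowest 12.51 for PSMC6. All these are log2 intensities.

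The siLSD1 effect in C42B minus that in LNCaP differed from 0 in limma's contrast for PSMC3IP (0.46), PSME4 (0.35) and PSMA2 (0.26), as described above.

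PSMA6, an alpha ring gene, and PSME2, the partner of PSME1, are read only by probe sets that name 2 genes, which no comparison used. On the brighter PSMA6 probe set DHT arrays averaged 0.40 log2 units above vehicle arrays. On the PSME2 probe set siLSD1 arrays averaged 0.15 above siNTC arrays in C42B, and DHT arrays 0.10 above vehicle arrays. In each of these cases the groups did not overlap, and no test was made.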

How the results depend on the processing

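Replicate numbers did not pair the arrays. With a replicate block, 5 instead of 9 members fell with siLSD1 in C42B, and 16 fell and 2 rose in LNCaP. With DHT 8 rose and 3 fell, and 3 differed between the lines, with PSMG4 (adjusted p = 0.049) in place of PSMA2 (0.098). Over all genes the block gave 1407 falls in C42B, against 1856 without it, and 2353 in LNCaP, against 2480. Under eBayes with trend and robust, 17 members fell with siLSD1 in C42B and 27 in LNCaP, 16 rose and 7 fell with DHT, and 7 differed between the lines upwards and 1 downwards. In that fit falls over all genes also rose in number, to 2485 in C42B and 2822 in LNCaP. With the mean of all probe sets 3 members rose and 6 fell with siLSD1 in C42B, and 4 rose and 12 fell in LNCaP. Over all genes 1451 rose and 1569 fell in C42B then, and 2547 rose and 2404 fell in LNCaP. In that setting PSMA5 turned to 0.21 in C42B, 0.10 in LNCaP and −0.0044 with DHT, PSMC2 to 0.38 in C42B, 0.23 in LNCaP and −0.069 with DHT, and PSMB2 with DHT to −0.15, all log2 fold changes; the probe sets that disagree are given above. Median centring left 0 rises with siLSD1 in LNCaP (2 with the deposited scaling, where 27 members had an unadjusted p under 0.05 in limma) and gave 21 rises with DHT. Rises over all genes in LNCaP went from 2640 to 2268 with that centring. Quantile normalisation gave 6 falls with DHT and 5 differences between the lines, and bright genes only gave 7 such differences. All-gene counts with DHT and between the lines are not given for these settings, the replicate block or eBayes with trend and robust. These member counts therefore do not separate a shift of the members from one over all genes. Leaving out 1 array at a time gave 3 to 10 falls and 1 rise with siLSD1 in C42B, 12 to 16 falls and 0 to 1 rises in LNCaP, 7 to 10 rises and 2 to 3 falls with DHT, and 2 to 6 upward and 0 downward differences between the lines. Over all genes the same fits gave 949 to 1987 falls in C42B and 1843 to 2689 in LNCaP with siLSD1. They gave 2253 to 2517 rises and 3262 to 3647 falls with DHT. Between the lines they gave 738 to 1483 upward and 821 to 1577 downward differences. The members' median stayed negative with siLSD1 over these fits (−0.12 to −0.08 in C42B, −0.18 to −0.16 in LNCaP) and positive with DHT (0.04 to 0.07). With the mean of all probe sets it was −0.11 in LNCaP and 0.023 with DHT, and with DHT it was 0.033 under quantile normalisation and 0.13 under median centring. Apart from those named, no cause was tested.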

Other observations

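The brighter PSMA6 probe set, which names a second gene as well, read 12.88 to 12.93 log2 units in LNCaP siLSD1 against 13.08 to 13.13 in LNCaP siNTC, and 13.37 to 13.43 in C42B siLSD1 against 13.46 to 13.49 in C42B siNTC. With DHT it read 13.90 to 13.98, against 13.53 to 13.57 with vehicle. The dimmer PSMA6 probe set overlapped between the groups in all 3 experiments (9.70 to 9.88 with DHT against 9.85 to 9.88 with vehicle). The PSME2 probe set read 11.70 to 11.75 in LNCaP siLSD1 against 11.81 to 11.91 in LNCaP siNTC, and 10.89 to 10.96 in C42B siLSD1 against 10.71 to 10.86 in C42B siNTC, so its groups were ordered in opposite ways in the 2 lines; the difference was not tested.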
